A study of Mus musculus with 6 samples.

Results

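The 9 genes described here encode the core of the Hedgehog pathway, and they were taken by name from a fixed list: Ptch1, Hhip, Cdon, Boc, Smo, Sufu, Gli1, Gli2 and Gli3. All 9 were found among the 53801 genes of each count file. They were followed in 6 RNA-seq libraries of mouse neural progenitor cells (NPCs), the proliferating precursors of neurons and glia, which had been derived in culture from embryonic stem cells. Every culture, the untreated ones included, had SPEN fused to an auxin-inducible degron (AID), so that the plant hormone auxin makes the cell destroy the protein, in the hybrid strain background BL/6J x CAST-EiJ. SPEN is a large RNA-binding corepressor, and the series was designed to compare NPCs before and after its loss. The groups were untreated cells, cells given 500 uM auxin for 24 h and cells given 500 uM auxin for 48 h, each with n = 2. The 2 libraries of a group came from clone 30 and clone 31, subclones each grown from NPCs of this degron line in N2B27 medium with EGF and FGF, so that spread between them is spread between these clones.

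Hedgehog ligands such as Shh bind the receptor Ptch1, which without ligand keeps the membrane protein Smo inactive. Once Smo is released it acts at the primary cilium, Sufu lets go of the Gli transcription factors, and Gli2 and Gli3 turn from repressors or silent proteins into activators. In the neural tube and in neural stem cells this pathway sets ventral identity and supports division. In mouse tissue, Ptch1, Hhip and Gli1 are classical targets that the active pathway raises, whereas the coreceptor genes Cdon, Boc and Gas1 are known to be lowered by it.

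The results turn on Ptch1 and Cdon, so the promoter windows of these genes are shown to give the sequence at a start of each. Each window runs from 250 bases before an annotated start to 50 bases after it on the gene's own strand, from RefSeq on GRCm38.p6, with the transcribed bases in capitals. The Ptch1 window lies at chr13:63565686-63565985 on the minus strand and the Cdon window at chr9:35451826-35452125 on the plus strand. Both lie inside the gene as annotated for the counts, which begins at chr13:63573598 for Ptch1 and chr9:35421128 for Cdon. Neither window therefore shows the outermost start of its gene.
Ptch1: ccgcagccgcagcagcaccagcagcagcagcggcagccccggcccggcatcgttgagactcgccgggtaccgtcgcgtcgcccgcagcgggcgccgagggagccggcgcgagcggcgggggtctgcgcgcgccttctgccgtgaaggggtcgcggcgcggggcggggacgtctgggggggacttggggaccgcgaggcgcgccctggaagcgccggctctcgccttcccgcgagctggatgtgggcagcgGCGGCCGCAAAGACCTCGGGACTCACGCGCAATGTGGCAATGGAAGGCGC
Cdon: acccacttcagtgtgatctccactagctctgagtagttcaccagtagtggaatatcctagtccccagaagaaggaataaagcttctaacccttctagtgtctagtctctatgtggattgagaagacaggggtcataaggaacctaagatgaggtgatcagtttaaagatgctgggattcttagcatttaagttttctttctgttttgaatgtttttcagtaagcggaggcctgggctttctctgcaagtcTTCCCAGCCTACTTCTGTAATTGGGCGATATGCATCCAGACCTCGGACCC
The Ptch1 window is a CpG-rich sequence with 76.3% GC and 47 CpG, and the Cdon window has 44.7% GC and 3 CpG, against a median of 52.7% and 7 CpG over 32851 windows of the same length. A GENCODE annotation, which is not the one behind the counts or the windows, gives Ptch1 10 starts and Cdon 6. Counts here sum over all exons of a gene, so that no start can be told apart. Windows of 7 of the 9 genes were at hand (all but Gli1 and Boc). The letters GACCACCCA, a Gli binding site, occurred on neither strand in any of the 7, and in 0.253% of all windows. The letters TGGGAA are the core bound by RBPJ, a Notch pathway factor with which SPEN is known to act. They occurred in the Cdon window alone among the 7, on the reverse strand at that window's internal start, and in 25.6% of all windows.

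Library totals ran between 24603816 and 43008978 counts, so that 3 counts, taken as the floor of detection, stood for 0.0698 to 0.122 CPM (counts scaled to library size). Spen RNA lay between 200 and 259 CPM at 48 h, between 174 and 218 CPM at 24 h and between 92.4 and 116 CPM in untreated cells, and since auxin acts on the protein this does not check its loss. Progenitor markers were high (11 genes, together 5393 to 5801 CPM at 48 h, 5115 to 5811 CPM at 24 h and 4347 to 5143 CPM in untreated cells), except Sox1, which had at most 3 counts in any library, while Pou5f1, Zfp42 and Dppa5a of pluripotent cells and Aif1 of microglia stood at 0 in all 6. In the blocked fit at 48 h against untreated, 8 of the 10 progenitor markers tested lay above 0 and 2 below. Nes had 648 and 1136 CPM at 48 h in clones 31 and 30, against 1275 and 1289 CPM in untreated cells. With the clone as a block, where 8.35% of all genes rose at 48 h against untreated, 3 of the 10 progenitor markers tested and 5 of the 8 astrocyte markers rose. So did 1 of the 3 pluripotency markers tested and Kdr, the 1 microglia or endothelial marker tested. No gene of the progenitor, astrocyte, pluripotency and microglia or endothelial lists fell, where 9.08% of all genes did. Of the 8 neuron markers tested 1 rose and 1 fell. Of the 6 mesenchymal markers tested 1 rose and none fell. The sum of the astrocyte markers was 2323 to 2522 CPM at 48 h, 1503 to 1727 CPM at 24 h and 1334 to 1935 CPM in untreated cells. Within this sum Slc1a3 had 759 to 1235 CPM over the 6 libraries, and Gfap only 0.261 to 2.72 CPM. On treatment group alone edgeR called no gene of the marker lists, where it called none of 16007 genes (0%). Of the 6 oligodendrocyte markers tested 3 rose with the block, and the sum of the list was 2915 to 3033 CPM at 48 h, 2341 to 2350 CPM at 24 h and 2163 to 2730 CPM in untreated cells. Mog, a defining oligodendrocyte marker, stayed at or under 3 counts. These gene groups change in the same libraries as the Hedgehog genes below, and their part in those results was not tested.

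Between 48 h and untreated cells, Ptch1 rose and Cdon fell, each in the same direction in both clones, while with the clone kept as a block the transducer Smo, the inhibitor Sufu and the factors Gli2 and Gli3 stayed within 0.23 on the log2 scale. Gli1 was near the floor. The calls come from edgeR with the block and from DESeq2 with or without it. In the fit on treatment group alone, edgeR's quasi-likelihood test with Benjamini-Hochberg adjustment called none of the 8 genes tested at an adjusted p under 0.05, and none of 16007 genes (0%), with 3311 at an unadjusted p under 0.05. With the block it called 2 of the 8 against 17.4% of all genes tested, 1 of them among the 8.35% that rose and 1 among the 9.08% that fell. A share of 2 in 8 is near that background, so the count itself says nothing particular about the pathway. DESeq2 also called these 2 genes, against 10.4% of all genes on treatment group alone and 21% with the block. Without the filter on low counts edgeR on treatment group alone called none of the 9, against 0.805% of all genes. In bulk RNA, a change in the number of cells that express a gene and a change in RNA per cell cannot be told apart.

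**Figure D1:**
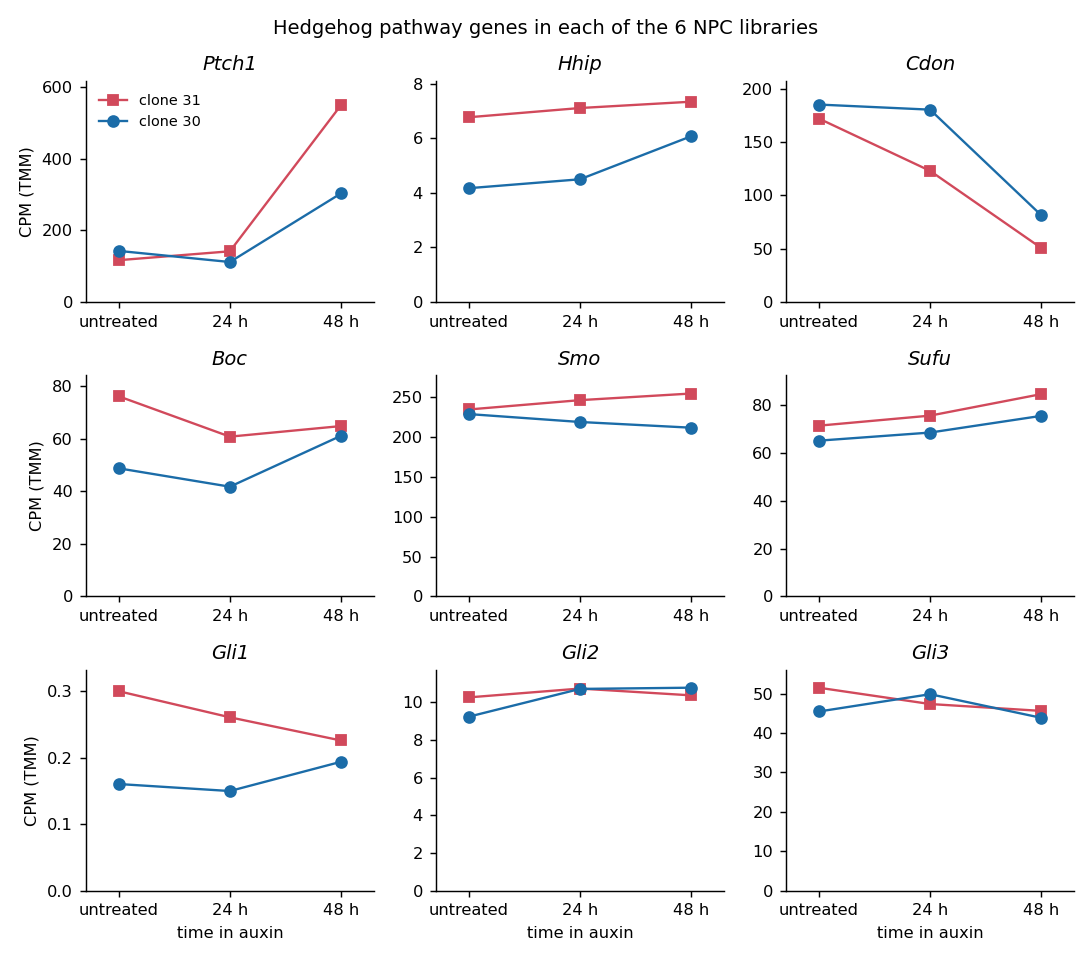
Level of each of the 9 Hedgehog genes in every library, in TMM-normalized CPM (y axis, from 0 and scaled separately for each gene), by time in auxin (x axis), with squares for clone 31 and circles for clone 30; lines join libraries of 1 clone. Ptch1 stands at 549 and 303 CPM at 48 h, above all its other libraries, and Cdon at 50.7 and 81.5 CPM, below all its others.

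Ptch1 (ENSMUSG00000021466, chr13:63508328-63573598 on the minus strand of GRCm38, 14185 bp of exon) encodes the ligand receptor. It had 549 CPM in clone 31 and 303 CPM in clone 30 at 48 h, 141 and 111 CPM in the same clones at 24 h, and 117 and 142 CPM in untreated cells. Both 48 h libraries were thus above the other 4, which overlap each other. Mean levels were 426 ± 174 CPM at 48 h, against 130 ± 18.3 CPM in untreated cells (SD, n = 2 each). Within a clone the level at 48 h was 4.71 times the untreated one in clone 31 and 2.13 times in clone 30. With the clone as a block, edgeR's quasi-likelihood test gave a log2 change of 1.66 ± 0.26 (SE; adjusted p = 0.0246), the 254th highest of 16007 genes. On treatment group alone edgeR gave 1.72 ± 0.32 with an adjusted p of 0.139, and DESeq2 gave an adjusted p of 3.39e-05. Without the untreated clone 31 library the blocked value was 1.22 with an adjusted p of 0.0880 in edgeR, and on the 4 libraries compared alone the adjusted p was 0.0644, so both end the call.

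Hhip (chr8:79965851-80058006), a membrane decoy that binds and holds back Hedgehog ligands, was low. It had 7.35 CPM in clone 31 and 6.08 CPM in clone 30 at 48 h, 7.11 and 4.50 CPM in the same clones at 24 h, and 6.78 and 4.17 CPM in untreated cells. The groups overlap, and clone 31 was the higher at each time. The blocked log2 change at 48 h was 0.32 ± 0.18 (edgeR, adjusted p = 0.25).

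Among the coreceptors, Cdon (ENSMUSG00000038119, chr9:35421128-35507652 on the plus strand, 7715 bp of exon) encodes a cell surface protein of the immunoglobulin superfamily that binds Hedgehog ligand beside Ptch1. Its level was 50.7 CPM in clone 31 and 81.5 CPM in clone 30 at 48 h, 123 and 181 CPM in the same clones at 24 h, and 172 and 185 CPM in untreated cells. The 48 h libraries were below the other 4 with no overlap. Cdon averaged 66.1 ± 21.8 CPM at 48 h and 179 ± 9.35 CPM in untreated cells (SD, n = 2 each). With the block the log2 change was -1.48 ± 0.15 (edgeR, adjusted p = 0.0238), which is 2.79-fold lower and the 185th lowest of 16007 genes. On treatment group alone it was -1.43 ± 0.29 with an adjusted p of 0.139 in edgeR and of 0.000336 in DESeq2. Without the untreated clone 31 library the blocked value was -1.22 (edgeR, adjusted p = 0.0712), and on the 4 libraries compared alone the adjusted p was 0.0618.

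Boc (chr16:44485049-44558897), the paralog of Cdon with the same role, did not follow it. It had 64.9 CPM in clone 31 and 61.2 CPM in clone 30 at 48 h, 60.9 and 41.8 CPM in the same clones at 24 h, and 76.2 and 48.8 CPM in untreated cells. The clones pointed in opposite directions at 48 h, with a log2 ratio of -0.23 in clone 31 and 0.33 in clone 30. The blocked log2 change was 0.05 ± 0.15 (edgeR, adjusted p = 0.838).

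Smo (chr6:29735503-29761365), the transducer that Ptch1 holds inactive, had the smallest blocked change at 48 h of the 8 genes. It had 255 CPM in clone 31 and 212 CPM in clone 30 at 48 h, 246 and 219 CPM in the same clones at 24 h, and 235 and 229 CPM in untreated cells. Its blocked log2 change at 48 h was 0.00 ± 0.10 (edgeR, adjusted p = 0.985). Sufu (chr19:46396896-46488804), which binds Gli proteins and holds them back, had 84.5 CPM in clone 31 and 75.5 CPM in clone 30 at 48 h, 75.6 and 68.5 CPM at 24 h, and 71.4 and 65.1 CPM in untreated cells. Each clone was highest at 48 h, and the 48 h libraries were above both untreated ones. The blocked log2 change of Sufu was 0.23 ± 0.08, with an edgeR p of 0.0351 unadjusted and 0.107 adjusted, so it did not pass the test.

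The 3 Gli genes encode the transcription factors at the end of the pathway. Gli3 (chr13:15463235-15730026), the main repressor form when no ligand is present, had 45.6 CPM in clone 31 and 43.9 CPM in clone 30 at 48 h, 47.4 and 49.9 CPM at 24 h, and 51.5 and 45.5 CPM in untreated cells. Gli2 (chr1:118834132-119053619), the main activator, had 10.4 and 10.8 CPM at 48 h in clones 31 and 30, 10.7 CPM in both clones at 24 h, and 10.3 and 9.23 CPM in untreated cells. The blocked log2 changes were -0.12 ± 0.10 for Gli3 (edgeR, adjusted p = 0.460) and 0.12 ± 0.14 for Gli2 (adjusted p = 0.581). Across all 6 libraries the highest level was 1.17 times the lowest for Gli2 and likewise 1.17 times for Gli3, against 4.93 times for Ptch1 and 3.65 times for Cdon.

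Gli1 (chr10:127329882-127341974), the factor whose own gene is a direct target and a common readout of pathway activity, was barely detected. It had 6 counts in each clone at 48 h, 11 counts in clone 31 and 6 in clone 30 at 24 h, and 12 and 4 counts in untreated cells, which is 0.15 to 0.3 CPM. It was the 1 of the 9 genes that the filter on low counts removed from the fits on all 6 libraries. With no filter its log2 value at 48 h against untreated was -0.18 ± 0.67 on treatment group alone (edgeR, adjusted p = 0.986) and -0.12 ± 0.57 with the block (adjusted p = 0.976). Summed counts were 12 at 48 h against 16 in untreated cells, a depth-normalized ratio of 0.847 with an exact 95% interval of 0.366 to 1.91, which covers counting error only. A change of Gli1 as large as that of Ptch1 would lie above that interval, and a change within it was not detectable at this depth. Its exons overlap those of genes on the opposite strand over 1.24% (Arhgap9) and 5.31% (Gm47200) of their length. The counts were made by strand per the file headers, but the kit that the labels name does not mark strand. Reads from those genes may thus be among the Gli1 counts, which was not tested.

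**Figure D2:**
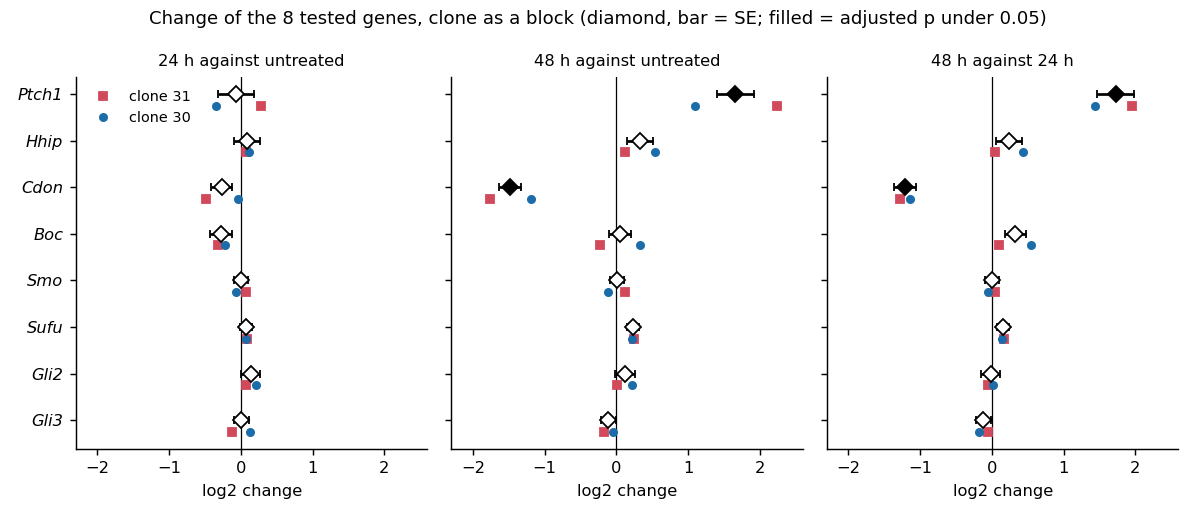
Log2 changes of the 8 tested Hedgehog genes in 3 panels, one for each pair of times (x axis, log2 change), with diamonds for the edgeR fit with the clone as a block, bars for its SE, filled diamonds for an adjusted p under 0.05, squares for clone 31 and circles for clone 30. Ptch1 at 1.66 and Cdon at -1.48 stand apart from the other genes at 48 h against untreated, and no diamond is filled at 24 h.

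After 24 h none of the 8 genes was called, with or without the block, and edgeR called none of 16007 genes in either fit (0%), with 988 at an unadjusted p under 0.05 with the block and 240 without it. DESeq2 called 6 genes (0.0375%), or 41 with the block (0.256%), none of them a Hedgehog gene. The blocked log2 changes at 24 h were -0.07 ± 0.25 for Ptch1 (edgeR, adjusted p = 0.975), -0.27 ± 0.15 for Cdon (adjusted p = 0.861) and -0.28 ± 0.15 for Boc (adjusted p = 0.859). In Ptch1 the clones pointed in opposite directions at 24 h, with a log2 ratio of 0.28 in clone 31 and -0.35 in clone 30. Cdon was at -0.48 in clone 31 and -0.04 in clone 30.

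Between 48 h and 24 h, Ptch1 rose and Cdon fell with the clone as a block. Ptch1 changed by 1.73 ± 0.26 (edgeR, adjusted p = 0.0164) and Cdon by -1.21 ± 0.15 (adjusted p = 0.0162) on the log2 scale, and these were 2 of 8 genes called against 26.1% of all genes tested (12.3% that rose and 13.9% that fell). Boc, at 0.33 ± 0.15, did not pass the test (edgeR, adjusted p = 0.153). On treatment group alone edgeR gave an adjusted p of 0.0860 for Ptch1 and 0.0962 for Cdon, and called none of 16007 genes, with 3997 at an unadjusted p under 0.05. DESeq2 called both, against 15.8% of all genes on treatment group alone and 26.7% with the block, and edgeR with no filter on low counts called Ptch1, against 3.11%. The blocked calls were lost without the 24 h clone 30 library (edgeR, adjusted p = 0.113 for Ptch1 and 0.111 for Cdon) and without the 24 h clone 31 library (0.123 and 0.0869). The comparisons of 48 h with 24 h and of 48 h with untreated cells share the 48 h libraries, and both comparisons with untreated cells share the untreated ones, so they are not independent.

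Levels of different genes were compared per kb of exon, as CPM per kb. At 48 h Smo led with 41.5 ± 5.40 and Ptch1 followed with 30.03 ± 12.3, and these overlap (37.7 and 45.3 for Smo, 21.4 and 38.7 for Ptch1 in clones 30 and 31). Below them came Boc at 14.2 ± 0.590, Sufu at 11.5 ± 0.925, Cdon at 8.57 ± 2.82, Gli3 at 4.67 ± 0.129, Gli2 at 1.54 ± 0.0417, Hhip at 0.740 ± 0.0988 and Gli1 at 0.0420 ± 0.00454 CPM per kb (SD, n = 2 each). In untreated cells the order was Smo at 41.2 ± 0.732, Cdon at 23.2 ± 1.21, Boc at 14.0 ± 4.36, Sufu at 9.82 ± 0.639, Ptch1 at 9.13 ± 1.29, Gli3 at 5.06 ± 0.444, Gli2 at 1.42 ± 0.105, Hhip at 0.603 ± 0.203 and Gli1 at 0.0461 ± 0.0198 CPM per kb. Sufu and Ptch1 overlapped there, while the other neighbours in the order did not overlap. In both clones Ptch1 was above Boc at 48 h and below it in untreated cells, and Cdon was below Boc and Sufu at 48 h and above both in untreated cells.

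**Figure D3:**
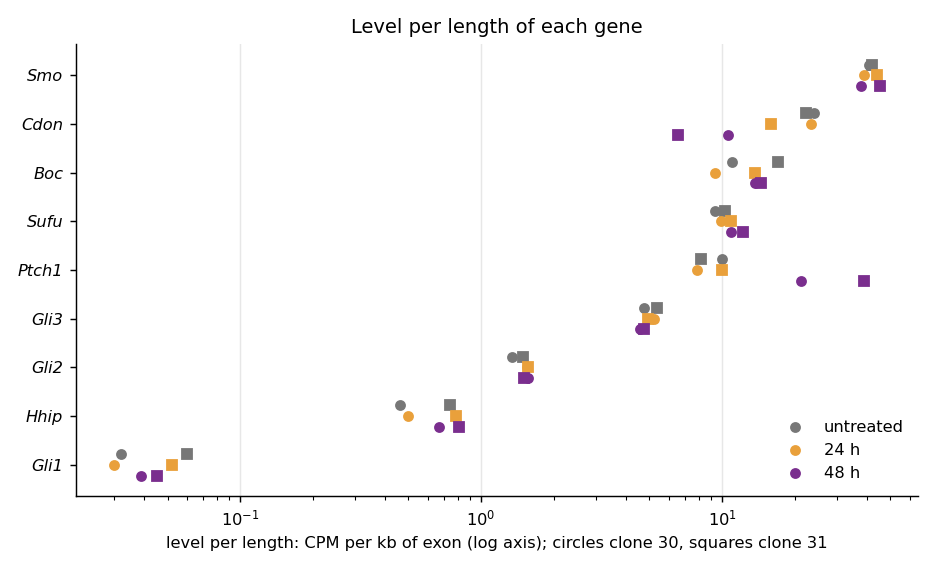
Level of the 9 Hedgehog genes per length, as CPM per kb of exon on a log axis (x axis), for each library by gene (y axis), with gray for untreated, orange for 24 h and purple for 48 h, circles for clone 30 and squares for clone 31. The 48 h points of Ptch1 lie at 21.4 and 38.7 CPM per kb, right of its other points, and those of Cdon at 10.6 and 6.57 CPM per kb lie left of its other points.

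The clones were set against each other in a fit that also held the time in auxin. Each clone had n = 3 libraries, which are 3 times and not replicate cultures of 1 condition. A difference between clones is thus an average over these times. None of the 8 genes was called between clone 31 and clone 30 by edgeR, against 16.2% of the 15492 genes tested there, and 3 had an unadjusted p under 0.05. These were Hhip at a log2 difference of 0.54 ± 0.15 (edgeR, adjusted p = 0.0628), Cdon at -0.45 ± 0.12 (adjusted p = 0.0628) and Boc at 0.42 ± 0.12 (adjusted p = 0.0754). DESeq2 called Cdon and Boc, with adjusted p of 0.0149 and 0.0352, against 17.4% of all genes. The difference of the 48 h change between the clones, clone 31 minus clone 30, with untreated and 24 h libraries together as the earlier state, was 0.83 ± 0.25 on the log2 scale for Ptch1. It did not pass the test (edgeR, adjusted p = 0.295; DESeq2, 0.0764), although the ratio of 48 h to untreated was larger in clone 31. The same difference was -0.37 ± 0.28 for Cdon (edgeR, adjusted p = 0.580). No gene of 16007 was called in that comparison by edgeR (0%), with 2139 at an unadjusted p under 0.05, and DESeq2 called 231 (1.44%), none a Hedgehog gene.

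Around the core genes, 78 further pathway genes in 5 lists were followed. None was called at 48 h against untreated by edgeR on treatment group alone, which called none of 16007 genes (0%). With no filter on low counts that fit called 1 relay gene that rose, against 0.805% of all genes. DESeq2 on treatment group alone called 4 primary cilium genes and 1 relay gene that rose and 1 target that fell, against 10.4% of all genes. Counts in the next sentences are from edgeR with the clone as a block, to be read against 8.35% of genes that rose and 9.08% that fell, and a median log2 change of 0.02 over all genes.

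Of the genes for ligands and their release, 6 of 9 passed the filter, 1 rose and none fell, with a median of 0.63. That rise was lost without either 24 h library, without either untreated library or on the 4 libraries compared alone. More genes were called without the 48 h clone 30 library. The median was 0.14 to 0.66 without 1 library and -0.58 with no filter. The ligand gene Shh had 1 count at 48 h, 3 at 24 h and 2 in untreated cells summed over the clones, at or under the floor. Scube3, of a family of secreted proteins that help to release Hedgehog ligands, rose by 1.01 ± 0.20 (edgeR, adjusted p = 0.0319), with 1.73 and 7.50 CPM at 48 h in clones 31 and 30, 1.83 and 6.40 CPM at 24 h, and 0.875 and 3.69 CPM in untreated cells. At 24 h against untreated its value was 0.91 ± 0.20 (edgeR, adjusted p = 0.656) and at 48 h against 24 h 0.10 ± 0.19 (adjusted p = 0.708). Its relatives Scube1 and Scube2 were at 1.12 ± 0.32 (adjusted p = 0.0635) and 1.26 ± 0.53 (adjusted p = 0.143), and the releasing transporters Disp1 and Disp2 at 0.26 ± 0.13 (adjusted p = 0.191) and -0.58 ± 0.23 (adjusted p = 0.128).

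Of 7 other receptor and coreceptor genes, 1 rose and 1 fell, with a median of -0.32. Neither was called without either 24 h library, without the untreated clone 31 library or on the 4 libraries compared alone. The rise was lost without the untreated clone 30 library, and more genes were called without the 48 h clone 30 library. Gas1, the third coreceptor beside Cdon and Boc, fell by 0.51 on the log2 scale (SE 0.11; edgeR, adjusted p = 0.0342). It had 96.6 and 117 CPM at 48 h in clones 31 and 30, 93.4 and 134 CPM at 24 h, and 141 and 161 CPM in untreated cells, so that its 24 h libraries were already below the untreated ones. At 24 h its blocked value was -0.43 ± 0.11 (edgeR, adjusted p = 0.663). Lrp2, a large endocytic receptor that also binds Shh, rose by 1.22 ± 0.20 (edgeR, adjusted p = 0.0251), to 4.29 and 7.82 CPM at 48 h in clones 31 and 30, against 1.98 and 3.17 CPM in untreated cells. Gpc3 and Gpc5, glypicans that bind Hedgehog ligands, were at -0.55 ± 0.16 (adjusted p = 0.0611) and -1.51 ± 0.48 (adjusted p = 0.0795), and Mosmo, which lowers Smo at the membrane, at -0.32 ± 0.13 (adjusted p = 0.137).

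Of 20 genes of the relay between Smo and the Gli proteins, 1 rose and 1 fell, with a median of 0.02. Neither was called without the untreated clone 31 library or on the 4 libraries compared alone. The fall was lost without either 24 h library, and more genes were called without the 48 h clone 30 library. Stk36, a kinase known for its role in fly Hedgehog signalling and in mouse for motile cilia, rose by 1.03 ± 0.13 (edgeR, adjusted p = 0.0238), with 33.9 and 35.4 CPM at 48 h in clones 31 and 30 and 14.8 and 19.4 CPM in untreated cells. Tulp3, which carries receptors into the cilium, fell by 0.61 on the log2 scale (SE 0.16; adjusted p = 0.0493). Grk2 at -0.43 ± 0.11 (adjusted p = 0.0529), Gsk3b at 0.58 ± 0.15 (adjusted p = 0.0536) and Kif7 at 0.35 ± 0.10 (adjusted p = 0.0627) did not pass.

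Of 17 genes listed as targets in neural or other mouse tissue, 12 passed the filter, none rose and 2 fell, with a median of 0.08. More genes were called without the 48 h clone 30 library, and a rise was called without the 48 h clone 31 or the untreated clone 30 library. Fewer fell without either 24 h library. Without the untreated clone 31 library or on the 4 libraries compared alone none was called and the median was -0.10 and -0.12. The 2 were cyclin genes, whose products drive entry into the cell cycle. Ccnd1 fell by 1.93 on the log2 scale (SE 0.26; edgeR, adjusted p = 0.0238), to 203 and 498 CPM at 48 h in clones 31 and 30, against 1124 and 1314 CPM in untreated cells. Ccnd2 fell by 1.302 (SE 0.25; adjusted p = 0.0302), to 244 and 814 CPM at 48 h, against 870 and 1416 CPM in untreated cells. Nkx6-2, a ventral neural tube factor, was at 7.53 and 5.82 CPM at 48 h in clones 31 and 30, 0.379 and 0.575 CPM at 24 h and 0.15 and 3.01 CPM in untreated cells. Both of its 48 h libraries were above the other 4, and its blocked log2 value of 2.54 ± 0.89 against untreated did not pass the test (edgeR, adjusted p = 0.0998). Against 24 h the blocked value was 3.95 ± 0.95 (edgeR, adjusted p = 0.0337), and 0.146 was the adjusted p of edgeR on treatment group alone. In that blocked comparison 1 target rose and 2 fell, against 12.3% and 13.9% of all genes. The rise was lost with voom, with no filter or without either 24 h library. Nkx6-1 was at 0.40 ± 0.15 (adjusted p = 0.121). Of the classical targets Ptch1, Hhip and Gli1, Ptch1 was called with the block, Hhip was not, and Gli1 was not called in the fits without a filter, and the differences between them were not tested.

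All 25 genes of the primary cilium, the antenna-like organelle where Smo acts, were tested, and 6 rose and none fell, with 21 above 0 and a median of 0.26. Examples are the transport genes Dync2h1 at 0.63 ± 0.11 (edgeR, adjusted p = 0.0285), Ift172 at 0.59 ± 0.09 (adjusted p = 0.0246) and Kif3a at 0.40 ± 0.09 (adjusted p = 0.0367), with Tctn1 of the transition zone at 0.60 ± 0.11 (adjusted p = 0.0290) and the BBSome gene Bbs2 at 0.60 ± 0.14 (adjusted p = 0.0390). Ift172 had 91.0 and 92.2 CPM at 48 h in clones 31 and 30, 58.2 and 62.9 CPM at 24 h, and 56.8 and 65.1 CPM in untreated cells. None of the 6 rises was called without either 24 h library, without the untreated clone 31 library or on the 4 libraries compared alone. More genes, with a fall among them, were called without the 48 h clone 30 library. The median stayed between 0.22 and 0.32 in the blocked fits.

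**Figure D4:**
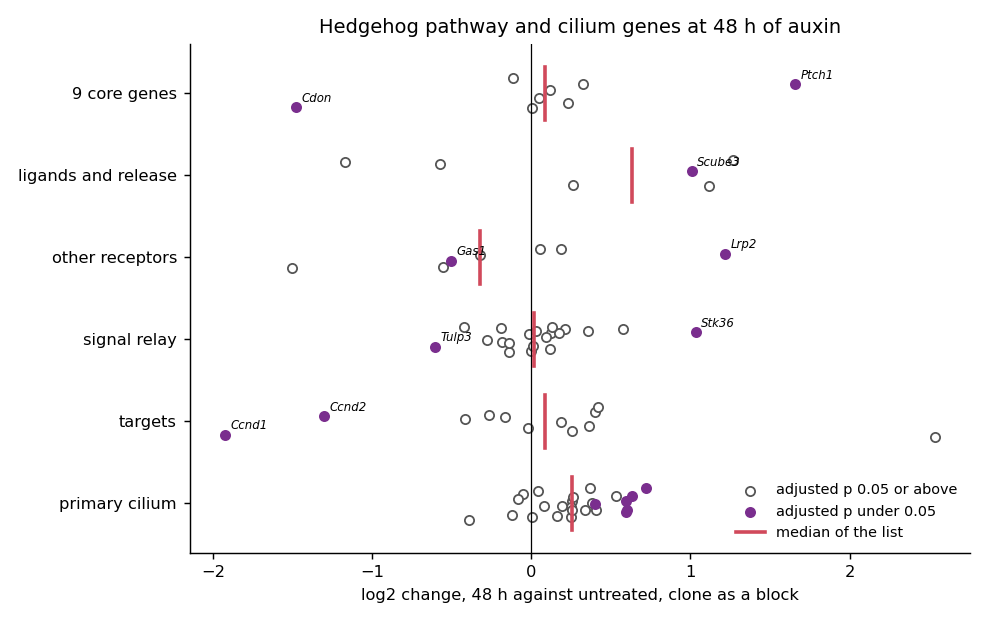
Log2 change at 48 h against untreated in the edgeR fit with the clone as a block (x axis) of every tested gene of the 9 core Hedgehog genes and of 5 lists of further pathway genes (rows), with filled points for an adjusted p under 0.05 and red bars for each list's median. The called genes lie on both sides of 0 in 3 of the rows, and the primary cilium row has its median at 0.26 with 6 genes called.

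Genes were also ranked by how closely their log2 CPM followed 1 of the Hedgehog genes over the 6 libraries, as the root mean square difference of the centred values among 11083 genes averaging at least 5 CPM. Ptch1 was most closely followed by Arrdc4 (difference 0.172), Mir9-3hg (0.184) and 4930402H24Rik (0.186). Arrdc4 had 128 and 73.1 CPM at 48 h in clones 31 and 30, against 27.9 and 37.4 CPM in untreated cells. For Cdon, a ranking added after its values were seen, the closest were B3galt6 (0.0900), Igfbp3 (0.123) and Adam12 (0.165). Igfbp3, a binding protein of insulin-like growth factors, had 236 and 430 CPM at 48 h in clones 31 and 30, against 677 and 861 CPM in untreated cells. For Gli3, which hardly moved, they were Pias2 (0.00694), Nsrp1 (0.0294) and Ints6 (0.0303).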

How the data were processed

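The authors deposited unnormalized counts per gene. They come from featureCounts 1.6.1, run on read pairs over exons of the GRCm38 annotation of Ensembl release 92 with the reverse-strand setting, per the file headers. RNA with a RIN above 9 went into TruSeq libraries sequenced as pairs of 100 bases, per the labels' protocols. Each gene's exon length, also in the deposited files, served for CPM per kb.

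Symbols were matched by Ensembl identifier for 53620 genes and 181 had none. All 6 libraries and every gene kept by filterByExpr entered the 2-sided quasi-likelihood test of edgeR 4.0.16 (robust; R 4.3.3), with TMM scaling, treatment group as the term and a Benjamini-Hochberg adjusted p threshold of 0.05. An SE is the size of the log2 change over the root of its F value. Libraries of a clone are paired, per the sample titles: across genes, deviations from the group means correlated at 0.58 between untreated and 48 h, 0.71 between 24 h and 48 h and 0.80 between untreated and 24 h. Results with the clone as a replicate block are therefore given where a call changes. With the block the biological coefficient of variation was 0.121 (2 residual degrees of freedom), against 0.271 on treatment group alone (3). The labels do not say that cultures of a clone were separate, so p-values measure the spread between these libraries. Alternatives used DESeq2 1.42.0, limma 3.58.1 voom, other scalings and filters, 4 libraries and 1 library left out; tests were tried on simulated data. The block with upper-quartile scaling, with voom and on 4 libraries was added after the data were seen. The genes and lists were chosen with earlier results of these data known. Named genes outside the 9 are up to 5 per list with the smallest p at 48 h in the blocked fit, with Shh and Gas1, and the 3 closest in pattern for Ptch1 and Gli3; Gli1, which the filter removed, had none. An item that the rule names is not reported here.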

Additional observations from a re-analysis of the deposited data

Results flagged for a closer look

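Ptch1 at 24 h against untreated was singled out because the clones pointed in opposite directions, each by more than 0.25 on the log2 scale, with 0.2776 in clone 31 and -0.354 in clone 30. Ptch1 had 141 CPM at 24 h and 117 CPM untreated in clone 31, and 111 CPM at 24 h and 142 CPM untreated in clone 30. The difference was not tested. At 48 h against untreated both clones were above 0, at 2.24 in clone 31 and 1.09 in clone 30.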

How the results depend on the processing

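At 24 h no Hedgehog gene was called under any alternative. For 48 h against untreated the count of Hedgehog genes called was 0 on treatment group alone, 2 with DESeq2, 2 with the clone as a replicate block, and 2 with the block under DESeq2, its size factors, voom, upper-quartile scaling or no filter; leaving out each library gave 0 to 2. For 48 h against 24 h it was 0, against 2 with DESeq2, 1 with no filter, 2 with the block and 2 with the block under each of those settings and on 4 libraries; leaving out each library gave 0 to 3. The third gene there was Boc without the 48 h clone 31 library, at 0.56 with the block. Shares over all genes are not given for the fits without 1 library, so these counts show only how far the calls held. Between the clones it was 2 with DESeq2, 2 with no filter, 1 with upper-quartile scaling and 0 to 3 with each library left out, against 0, with 3 without either 48 h library and 2 without either untreated one. For the clone difference of the 48 h change it was 0 to 1, the 1 without the 24 h clone 30 library. Ptch1 stayed above 0 and Cdon below 0 at 48 h in all 27 fits of each comparison: Ptch1 between 1.22 and 2.11 and Cdon between -1.73 and -1.22 with the block against untreated, each called in 11 of 13.

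Apart from fits without 1 library, the values that turned sign all lay close to 0, and the cause was not tested. Gli3 at 24 h was -0.00436 with the 1 CPM filter, -0.00148 with voom, -0.000906 with no filter, -0.00642 on 4 libraries, -0.0345 with upper-quartile scaling and, with the block, -0.000229 (voom), -0.00756 (4 libraries) and -0.0351 (upper quartile). Smo at 24 h was -0.00312 (1 CPM), -0.00563 (4 libraries), -0.0359 (upper quartile) and, with the block, -0.00212 (no filter), -0.00718 (4 libraries) and -0.0388 (upper quartile). Between 48 h and 24 h, Gli2 was 0.00517 (1 CPM), 0.0610 (upper quartile, with and without the block) and Smo -0.00187 with the block under DESeq2 and its size factors. Between clones with upper-quartile scaling, Gli2 was -0.0211 and Gli3 -0.000287. The clone difference of Gli3 was -0.000332 (DESeq2), -0.000236 (size factors) and -0.00240 (no filter). Without 1 library, on treatment group alone, values that turned sign ranged as follows. At 24 h Gli3 lay between -0.0807 and 0.0995, Ptch1 between -0.217 and 0.131, Hhip between -0.287 and 0.481, Smo between -0.0826 and 0.0931, Boc between -0.582 and 0.0773 and Cdon between -0.533 and 0.0143. At 48 h against untreated Hhip lay between -0.0215 and 0.682, Smo between -0.145 and 0.145, Boc between -0.282 and 0.367, Disp2 between -1.46 and 0.351, Gpc5 between -3.28 and 0.0155, Rab34 between -0.119 and 0.684 and Scube3 between -0.375 and 2.39. Between 48 h and 24 h Gli2 lay between -0.0312 and 0.000942, Hhip between -0.0921 and 0.574 and Smo between -0.142 and 0.147. Between clones Gli2 lay between -0.0259 and 0.0596 and Gli3 between -0.00969 and 0.117, and the clone difference lay between -0.0621 and 0.0685 for Gli3 and between -0.0155 and 0.0725 for Sufu. With the block and 1 library left out, values that turned sign at 24 h were -0.00478, -0.00556, -0.0817 and -0.0865 for Gli3, 0.419 for Ptch1, -0.00818 and -0.0128 for Hhip and -0.00635, -0.00460, -0.00514 and -0.0872 for Smo. At 48 h against untreated they were -0.1002 and -0.0929 for Smo and -0.195 and -0.117 for Boc, and at 48 h against 24 h -0.0152, -0.0951, -0.01004 and -0.00565 for Smo and 0.0304 for Gli2. Depth limits Gli1 and Shh, and 2 libraries per group limit every test.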
